A study of Mus musculus with 16 samples.

Results

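The JAK kinases and STAT factors considered here are 9 genes, the kinases Jak1, Jak2 and Jak3 and the transcription factors Stat2, Stat3, Stat4, Stat5a, Stat5b and Stat6. They were taken by symbol from a table of 18929 genes measured in 16 mouse tumors. All 9 were in the table and all 9 were among the 12850 genes tested, which had at least 0.5 FPKM (fragments per kilobase of transcript, scaled to the mapped fragments of the library) in 4 or more tumors. The tumors were B16F10 melanomas, grown from a mouse melanoma line transplanted to the right side of the abdomen of C57BL/6 females 7 to 8 weeks old. Treatment was intraperitoneal, began at a tumor volume near 50 mm3 and lasted 9 to 11 days. There were 4 independent tumors in each of 4 groups: vehicle (labelled Vehicle; corn oil with an IgG isotype control), anti-PD1 (PD1mAb; a monoclonal antibody against the checkpoint receptor PD1), α-KG (alpha_KG; α-ketoglutarate at 100 mg/kg) and the combination (aKG_PD1mAb; both agents). Whether the single-agent and combination groups also received corn oil or isotype antibody is not given in the sources used here, so in contrasts with vehicle the agent and its carrier or isotype control cannot be told apart. Each sample was a whole tumor, a transplant of a single line together with the host cells that had entered it. Fewer cells of a type and less RNA per cell can therefore not be told apart.

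JAK kinases are bound to the cytoplasmic tails of cytokine receptors. When a cytokine joins the receptor chains, the kinases phosphorylate each other, the receptor and the STAT factors, which then pair, enter the nucleus and bind DNA. The interferon gamma receptor uses Jak1 and Jak2, receptors that share the common gamma chain use Jak1 and Jak3, and Stat2 acts in the type I interferon response. In melanoma the pathway is known for inducing antigen presentation genes and PD-L1 when interferon gamma is present.

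The 9 genes lie on 6 chromosomes of the mouse genome (build GRCm38, GENCODE M21 annotation). Stat5b (chr11:100780731-100850724, minus strand), Stat5a (chr11:100859351-100885169, plus strand) and Stat3 (chr11:100885098-100939540, minus strand) are neighbors. Stat6 (chr10:127642986-127660957) and Stat2 (chr10:128270559-128292849) share a chromosome, and Stat4 (chr1:51987148-52107189), Jak1 (chr4:101152367-101265282), Jak2 (chr19:29251828-29313080) and Jak3 (chr8:71676296-71690575) stand alone. The 3' ends of Stat5a and Stat3 overlap by 72 bases on opposite strands, and Stat6 overlaps Nab2 by 40 bases. Jak3 overlaps Insl3, a gene on the same strand, by 1362 bases. Insl3 was listed at 0 to 4.16 FPKM in vehicle and at 1.11 to 11.5 FPKM in combination tumors, and how fragments of a shared stretch were assigned is not given in the sources used here. Jak2 lies 54374 bases from Cd274, the gene of PD-L1, with 3 protein-coding genes between them.

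The window from 250 bases before to 50 bases after each start site (RefSeq, GRCm38.p6) was searched on both strands for the letters of a STAT dimer site, TTCNNNGAA, and of the core of an interferon-stimulated response element, the word GAAA repeated after 2 bases of any kind. The first reads the same on both strands, and the second begins with TTTC on the other strand. All 9 genes were found in that table, with 12 windows in all. The first motif was in none of the 12 windows, and 9.55% of all 27025 genes had it. The second was in windows of 2 of the 9 genes, Stat2 and Stat4, and in those of 3.99% of all genes. The 250 bases before these 2 start sites are shown because these are the STAT genes with the highest fold changes below, with the motif in capitals. The Stat2 stretch is chr10:128270248-128270497 and its motif begins at position -222. The Stat4 stretch, chr1:52007990-52008239, belongs to a second start site inside the gene and its motif begins at position -97. Both genes are on the plus strand.
Stat2: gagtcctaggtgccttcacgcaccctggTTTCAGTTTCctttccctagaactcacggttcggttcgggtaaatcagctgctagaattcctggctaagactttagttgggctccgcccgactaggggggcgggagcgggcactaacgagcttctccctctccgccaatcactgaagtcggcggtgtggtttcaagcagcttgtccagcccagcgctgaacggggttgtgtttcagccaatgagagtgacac
Stat4: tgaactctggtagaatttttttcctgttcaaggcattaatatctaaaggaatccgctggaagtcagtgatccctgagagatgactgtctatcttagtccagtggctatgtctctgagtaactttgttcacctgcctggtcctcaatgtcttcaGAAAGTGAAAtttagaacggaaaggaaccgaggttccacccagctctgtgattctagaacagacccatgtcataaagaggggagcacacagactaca
A match is a stretch of letters and says nothing of binding in these tumors.

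Melanocyte markers were high in all 16 tumors, with a summed level of 10 genes between 8146 and 11080 FPKM. The other markers differed between groups. The summed level of 10 pan-leukocyte genes was 348 to 495 FPKM in vehicle tumors, and 494 to 722 after anti-PD1, 872 to 925 after α-KG and 595 to 1464 after both. That of 14 T-cell genes was 4.36 to 17.8 FPKM in vehicle and 37.8 to 301 in combination tumors, and that of 6 neutrophil genes was 1075 to 2862 FPKM in α-KG tumors and at most 111 in the other groups. Macrophage genes summed to 98.0 to 491 FPKM in vehicle and 681 to 1642 in combination tumors, natural killer cell genes to at most 1.52 and 62.1, and keratinocyte genes to at most 0.8 FPKM in any tumor. Red-cell genes summed to between 10892 and 11752 FPKM in combination tumors and to between 63152 and 107460 in vehicle, and skeletal muscle genes reached 846 FPKM in a vehicle tumor. The total FPKM of a tumor was 514180 to 654772, the number of reads behind it is unknown, and no batch is given. The part of these differences in the results below was not tested, except for the scalings and marker scores given with them.

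The levels of the 9 genes spanned a wide range, and FPKM, being per length, allows genes to be compared. Stat3, which carries signals of the interleukin-6 family, was the highest in every group, followed by Stat6, the factor of interleukin-4 signals, and Jak1. In vehicle the means were 39.8 ± 3.30 FPKM (SD, n = 4) for Stat3, 32.5 ± 1.07 for Stat6 and 21.4 ± 2.87 for Jak1, with no overlap between neighbors. Stat5b followed at 10.2 ± 1.27 FPKM, separate from Stat5a at 6.08 ± 0.781. Stat5a, Jak2 (6.04 ± 1.47 FPKM), Jak3 (4.38 ± 0.216) and Stat2 (3.43 ± 1.86) overlapped with their neighbors in that order. Stat4, the factor of interleukin-12 signals, was the lowest in every group, at 0.305 ± 0.305 FPKM in vehicle. The order below the leading genes changed. Stat2 was the eighth of 9 in vehicle and α-KG, the seventh in anti-PD1 and the fourth in combination tumors, where its range overlapped with those of its neighbors Jak1 and Stat5b. Jak2 was the fifth in anti-PD1 and α-KG and the eighth in combination tumors, overlapping with Stat5a. The sum of the 9 genes was 119 to 132 FPKM in vehicle and 168 to 240 in combination tumors, and Jak1, Stat3 and Stat6 held 75.5% and 64.1% of it.

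**Figure D1:**
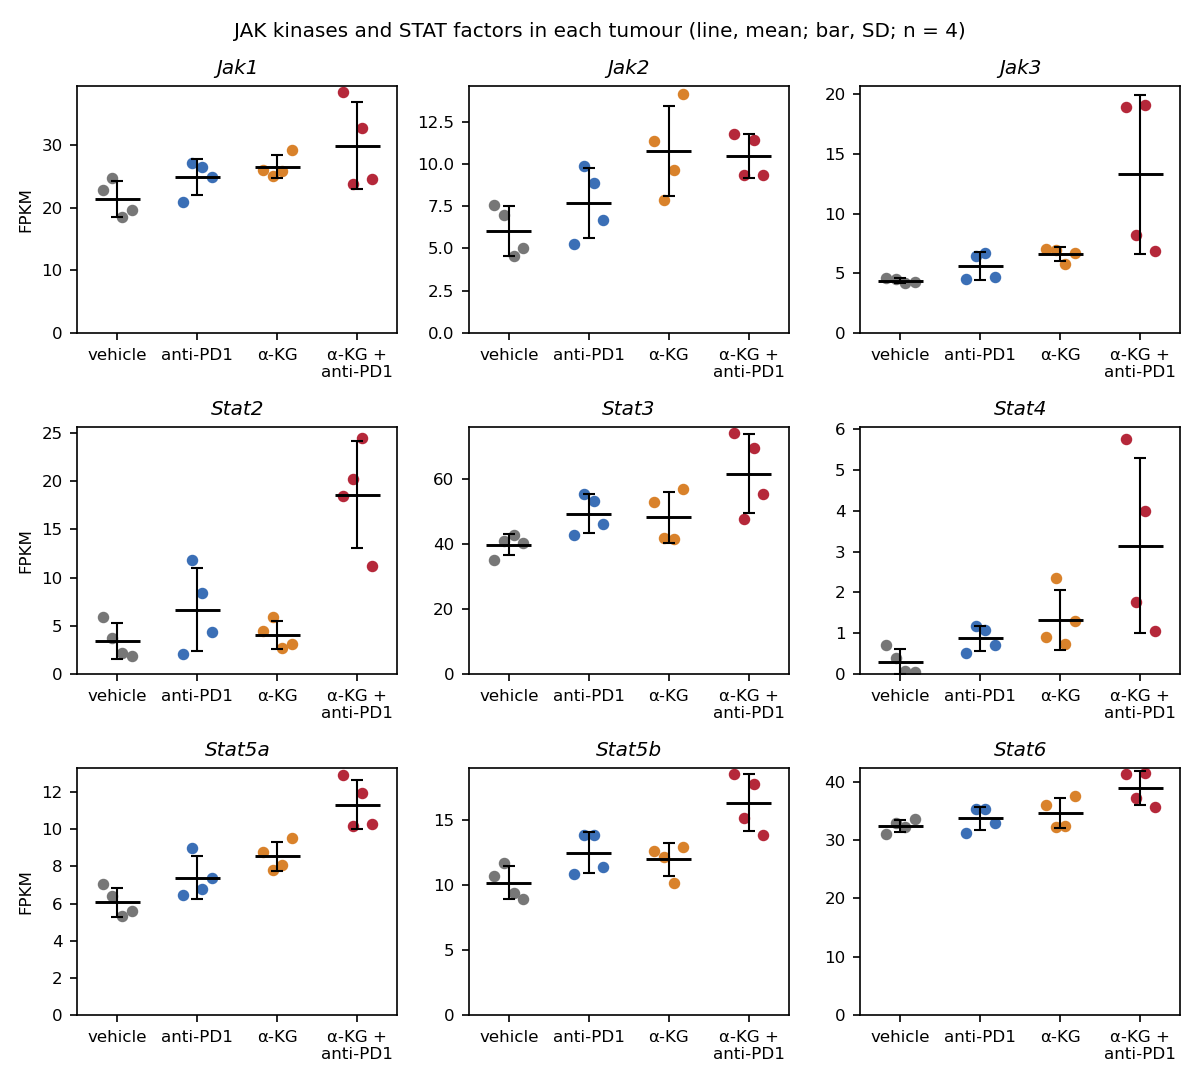
FPKM of each of the 9 genes (vertical axis, from 0) in every tumor of the 4 groups (horizontal axis). Points are tumors, lines are means and bars are SD (n = 4). The 4 combination tumors of Stat5a and Stat5b sit above all other 12 tumors, and the share of all genes that do so was not counted. Those of Jak2 sit between 9.32 and 11.8 FPKM, within the range of the α-KG tumors.

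Jak1, the kinase shared by most cytokine receptors, was at 22.8, 24.7, 18.5 and 19.6 FPKM in the vehicle tumors and at 20.9, 27.2, 26.6 and 24.95 in the anti-PD1 tumors. It was at 26.1, 25.1, 26.0 and 29.2 FPKM in the α-KG tumors and at 38.5, 23.9, 32.7 and 24.6 in the combination tumors. Every α-KG tumor was above every vehicle tumor, whereas combination tumors 2 and 4 were within the vehicle range. Its log2 fold change for the combination against vehicle was 0.45 (standard error 0.14, adjusted p = 0.0163), the second lowest of the 9. For α-KG alone it was 0.31 (adjusted p = 0.146). Here and below, fold changes are differences of log2(FPKM + 1) and p is adjusted over all 12850 genes.

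Jak2, the partner kinase of Jak1 at the interferon gamma receptor and the kinase of several growth factor receptors, was at 7.57, 7.00, 4.58 and 5.01 FPKM in vehicle and at 5.29, 9.86, 8.90 and 6.70 in anti-PD1 tumors. It was at 11.4, 7.89, 9.62 and 14.1 FPKM in α-KG tumors and at 11.8, 9.32, 11.4 and 9.37 in combination tumors. All 8 tumors that received α-KG were above every vehicle tumor, and the 2 groups that received it overlapped. Jak2 rose by 0.74 with α-KG alone (standard error 0.19, adjusted p = 0.0174) and by 0.72 with the combination (adjusted p = 0.00783), both against vehicle. Between the 2 groups that received α-KG the difference was -0.02, with a 95% interval from -0.43 to 0.40, and it turned to 0.19 after rescaling to the same sum.

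Jak3, the kinase that acts with Jak1 at the common gamma chain in lymphocytes, was at 4.61, 4.5, 4.15 and 4.24 FPKM in vehicle and at 4.56, 6.48, 6.70 and 4.69 in anti-PD1 tumors. It was at 7.00, 6.94, 5.81 and 6.72 FPKM in α-KG tumors and at 18.9, 8.24, 19.1 and 6.89 in combination tumors. The combination group fell into high tumors (1 and 3) and lower ones (2 and 4), the latter near the α-KG level. Jak3 rose by 1.28 against vehicle (standard error 0.25, adjusted p = 0.00110). The rise was 1.00 over anti-PD1 (adjusted p = 0.0207) and 0.78 over α-KG (adjusted p = 0.0211). The overlap with Insl3 given above applies to these values.

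Stat2, which forms a complex with Irf9 in the type I interferon response, was at 5.95, 3.73, 2.13 and 1.92 FPKM in vehicle and at 2.10, 11.9, 8.37 and 4.34 in anti-PD1 tumors. It was at 4.42, 5.89, 2.70 and 3.15 FPKM in α-KG tumors and at 18.4, 20.3, 24.5 and 11.2 in combination tumors. The combination tumors were above every vehicle and α-KG tumor, and anti-PD1 tumor 2 was above the lowest of them. Stat2 had the largest fold change of the 9 against vehicle, 2.18 (standard error 0.39, adjusted p = 0.000713), with a ratio of means of 5.42. Stat2 rose by 1.95 against α-KG (adjusted p = 0.00193) and by 1.5 against anti-PD1 (adjusted p = 0.0241). With α-KG alone the change of Stat2 against vehicle was 0.23 (95% interval -0.59 to 1.06).

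Stat4 was at 0.70, 0.39, 0.08 and 0.05 FPKM in vehicle and at 0.52, 1.17, 1.08 and 0.72 in anti-PD1 tumors. It was at 0.90, 2.35, 0.74 and 1.31 FPKM in α-KG tumors and at 5.77, 1.77, 3.99 and 1.06 in combination tumors. All 8 tumors that received α-KG were above the vehicle range, and combination tumors 1 and 3 were above all others. Stat4 rose by 1.54 against vehicle (standard error 0.31, adjusted p = 0.00149). Values under 1 FPKM are the least precise, and the pseudocount sets the size of this change: with 0.1 in place of 1 it was 3.07. With α-KG alone the change was 0.81 (adjusted p = 0.0902).

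Stat5a and Stat5b are closely related factors that respond to interleukin-2, to growth hormone and to other growth factors. Stat5a was at 7.03, 6.39, 5.31 and 5.59 FPKM in vehicle, and at 12.9, 10.2, 11.9 and 10.3 in combination tumors. In between, the anti-PD1 tumors had 6.44, 9.02, 6.76 and 7.38 FPKM and the α-KG tumors 8.77, 7.82, 8.06 and 9.53. Stat5a was the only gene of the 9 that rose in 4 comparisons: the combination against vehicle (0.80, adjusted p = 0.000417), anti-PD1 (0.56, adjusted p = 0.0112) and α-KG (0.37, adjusted p = 0.0194), and α-KG against vehicle (0.43, standard error 0.11, adjusted p = 0.0169). Stat5b was at 10.7, 11.7, 9.42 and 8.90 FPKM in vehicle, at 10.9, 13.9, 13.8 and 11.4 in anti-PD1, at 12.6, 12.2, 10.1 and 13.0 in α-KG and at 18.5, 15.2, 17.8 and 13.9 in combination tumors. The 4 combination tumors were above all 12 others for both genes, though for Stat5b the lowest (13.88 FPKM) was only just above the highest anti-PD1 tumor (13.85). How many of all genes stood above all 12 was not counted. In pairwise comparisons 28.2% of all genes had every combination tumor above every vehicle tumor, 13.6% above every anti-PD1 tumor and 29.7% above every α-KG tumor. Stat5b rose by 0.63 against vehicle (standard error 0.12, adjusted p = 0.000878), by 0.42 against α-KG (adjusted p = 0.0118) and by 0.36 against anti-PD1 (adjusted p = 0.0479).

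Stat3 was at 35.1, 41.0, 42.9 and 40.4 FPKM in vehicle and at 74.1, 47.7, 69.4 and 55.4 in combination tumors. The anti-PD1 tumors had 42.7 to 55.3 FPKM and the α-KG tumors 41.5 to 56.8, which both overlapped with vehicle and with the combination. Stat6 was at 31.0, 32.9, 32.3 and 33.6 FPKM in vehicle and at 41.3, 37.2, 41.5 and 35.7 in combination tumors, the anti-PD1 tumors having 31.3 to 35.4 and the α-KG tumors 32.3 to 37.5. Stat6 had the narrowest relative spread in vehicle, with an SD of 3.31% of the mean, followed by Jak3 (4.93%) and Stat3 (8.29%). Against vehicle Stat3 rose by 0.60 (standard error 0.14, adjusted p = 0.00327). Stat6 had the smallest change, 0.25 (standard error 0.07, adjusted p = 0.0101), which turned to -0.060 (adjusted p = 0.475) when each tumor was centered on its median.

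Between the combination and vehicle, all 9 genes rose, and 8 of them, all but Jak1, had every combination tumor above every vehicle tumor. Over all genes tested, 34.9% were called higher and 28.2% had every tumor above. The median fold change of the 9 genes was 0.72 and that of all genes 0.15, so that relative to all genes the changes ran from 0.10 (Stat6) to 2.03 (Stat2). Of all genes, 4479 were higher and 1348 lower in the values as deposited, and 2241 and 3994 after quantile normalization, which moved the median of all genes to -0.11. After quantile normalization 7 of the 9 genes were still called higher (Jak1 0.29, adjusted p = 0.0629; Jak2 0.35, adjusted p = 0.0546), and after centering on tumor medians 6 (not Jak1, Stat3 and Stat6). Jak1 was not called without vehicle tumor 3 (0.38) or 4 (0.41) or without combination tumor 1 (0.32) or 3 (0.39).

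Between α-KG and vehicle, 2 of the 9 genes rose, Jak2 and Stat5a, and 5 had every α-KG tumor above every vehicle tumor: Jak1, Jak2, Jak3, Stat4 and Stat5a. Over all genes 8.40% were called higher and 10.1% had every tumor above. Of all genes, 1080 were higher and 968 lower, and 1039 and 1644 after quantile normalization. The median was 0.31 for the 9 genes and -0.04 for all genes. An unadjusted p under 0.05 was found in 4 of the 9 and in 3880 of all 12850 genes. Neither call remained without vehicle tumor 3 (Jak2 0.63, Stat5a 0.38) or vehicle tumor 4 (Jak2 0.67, Stat5a 0.40), and Jak2 was not called without α-KG tumor 4 (0.60). After rescaling to the same sum neither passed (adjusted p = 0.0557 for Jak2 and 0.0764 for Stat5a). When only these 2 groups were fitted, Jak3 (adjusted p = 0.00698) and Stat4 (0.0415) were called too, and with a pseudocount of 0.1 Stat4 was (0.0232). The neutrophil markers given above were high in these 4 tumors, and their part in the changes was not tested.

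Between anti-PD1 and vehicle, limma called 0 of the 9 genes, 3 had an unadjusted p under 0.05 (Stat3, Stat5a and Stat5b) and 0 had every tumor above. An unadjusted p under 0.05 was found in 2130 of all 12850 genes. Over all genes 0.467% were called higher and 5.00% had every tumor above; 60 genes were higher and 36 lower, and 15 and 14 after rescaling to the same sum. All 9 estimates were above 0, from 0.05 (Stat6) to 0.68 (Stat2), with a median of 0.28 against 0.03 for all genes. The 95% interval for Stat2 ran from -0.14 to 1.51. The 2 single treatments were also set against each other. For α-KG against anti-PD1 limma called 0 of the 9 genes, 1 had an unadjusted p under 0.05 (Jak2, 0.44, adjusted p = 0.297) and 0 had every tumor above, where 2.80% of all genes were called higher and 5.41% had every tumor above. An unadjusted p under 0.05 was found in 1961 of all 12850 genes. Of all genes, 360 were higher and 46 lower, and 294 and 155 after rescaling to the same sum without hemoglobin genes. The lowest estimate was that of Stat2, -0.45 (95% interval -1.28 to 0.38).

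Between the combination and anti-PD1, 5 of the 9 genes rose: Stat2, Stat4, Stat5a, Stat5b and Jak3. Over all genes 14.2% were called higher, and the 1819 higher and 168 lower genes became 721 and 1082 after quantile normalization. In 4 genes (Stat5a, Stat5b, Stat6 and Jak3) every combination tumor was above every anti-PD1 tumor, against 13.6% of all genes. The median was 0.43 for the 9 genes and 0.12 for all genes. Stat5a alone was called without anti-PD1 tumor 1, without anti-PD1 tumor 4 or without combination tumor 3, and Stat2 and Stat5a without combination tumor 1. Stat4 was not called without anti-PD1 tumor 3 (1.06), nor Stat5b without combination tumor 2 (0.39), and Stat6 was called without combination tumor 4 (0.24). When only these 2 groups were fitted, 0 of the 9 were called, as were 0 of all genes. In that fit 7 of the 9 had an unadjusted p under 0.05, as had 4077 of all 12850 genes. After rescaling to the same sum 7 of the 9 were called. That scaling also called 4198 of all genes higher and moved the median of all genes to 0.28.

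Between the combination and α-KG, 4 of the 9 genes rose: Stat2, Stat5a, Stat5b and Jak3. In 3 of them, Stat2, Stat5a and Stat5b, every combination tumor was above every α-KG tumor. Over all genes 31.8% were called higher and 29.7% had every tumor above, so the 4 and 3 of 9 were near the background. Of all genes, 4086 were higher and 832 lower, and 2023 and 2020 after quantile normalization. The median was 0.37 for the 9 genes and 0.16 for all genes. After quantile normalization or centering, Stat2 was the only gene of the 9 still called, with fold changes between 1.68 and 2.18 over all alternatives. After rescaling to the same sum 7 of the 9 were called. That scaling also called 6829 of all 12850 genes higher and moved the median of all genes to 0.36. Stat5a and Jak3 were not called without α-KG tumor 3 (0.34 and 0.73), combination tumor 1 (0.31 and 0.58) or tumor 3 (0.34 and 0.57), and Stat5a was not called without α-KG tumor 2 (0.33). Leaving out a tumor also added calls, of Stat3 without α-KG tumor 4 (0.42) or combination tumor 2 (0.45), of Stat4 without α-KG tumor 2 (0.92) or combination tumor 4 (1.01), and of Stat6 without α-KG tumor 4 or combination tumor 4 (0.20 in both).

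The interaction, the effect of anti-PD1 on top of α-KG less the effect it had by itself, was called for 0 of the 9 genes by limma, and 1 of the 9, Stat2, had an unadjusted p under 0.05. Over all genes it was called higher in 7.99% (1027 genes) and lower in 3.13% (402 genes), and after quantile normalization in 569 and 559 genes. The interaction had an unadjusted p under 0.05 in 3818 of all 12850 genes. For Stat2 it was 1.27 (standard error 0.55, adjusted p = 0.136), and without anti-PD1 tumor 2 it was 1.58 (adjusted p = 0.0444). For Jak2 it was -0.31 (adjusted p = 0.468). A difference between the effects of anti-PD1 with and without α-KG was therefore not shown for any of the 9 genes with all tumors in the fit.

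**Figure D2:**
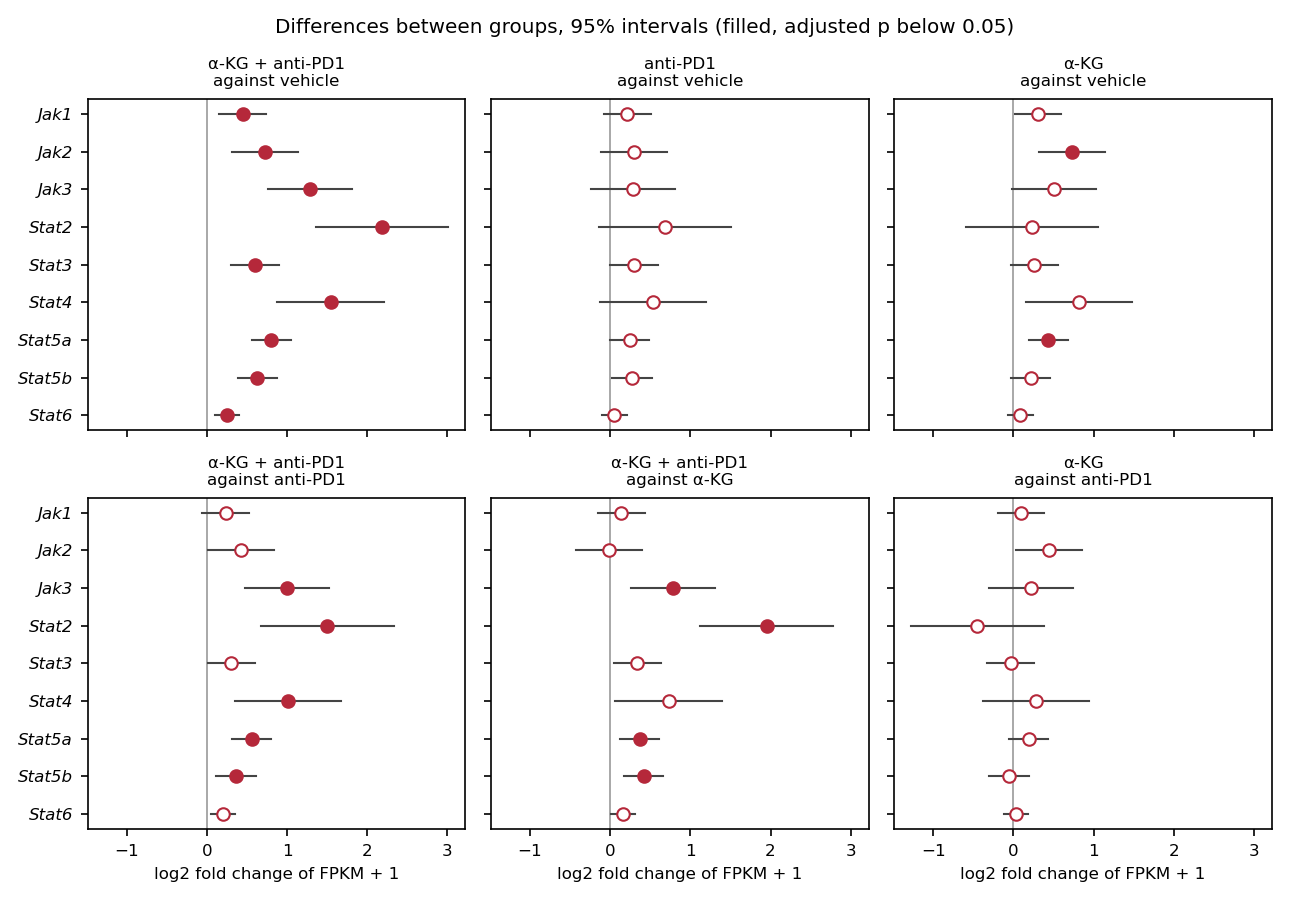
Log2 fold change of FPKM + 1 (horizontal axis) of the 9 genes (vertical axis) in the 6 pairs of groups, with 95% intervals from limma. Filled points passed an adjusted p of 0.05; 9 are filled for the combination against vehicle, 2 for α-KG against vehicle and 0 for anti-PD1 against vehicle.

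The genes were next compared with each other. For each of the 36 pairs of genes the difference of their log2 values was taken within each tumor, which cancels a factor common to a tumor apart from the pseudocount, and this log2 ratio was then set between groups. The test was an exact permutation test, two-sided, enumerating the 70 divisions of 8 tumors. The smallest p this design allows is 0.0286. Adjusted over the 36 pairs, 0 pairs passed in any of the 6 comparisons. Since p cannot go below 0.0286, a pair can pass only when well over 17 of the 36 reach that value together. The count of 0 therefore says little about any single pair. Before adjustment, 17 pairs reached the smallest exact p between the combination and vehicle (smallest adjusted p = 0.0605), 12 against α-KG (0.0857) and 8 against anti-PD1 (0.129), by the permutation test. It was reached by 3 pairs for α-KG against vehicle (adjusted permutation p = 0.206), 3 for α-KG against anti-PD1 (0.316) and 2 for anti-PD1 against vehicle (0.514). How many pairs of other genes reached it was not counted. Without a difference between the groups, a given pair reaches it with a probability of 0.0286, so counts of 2 or 3 of 36 can arise without one. Pairs that hold the same gene share its values and are not separate observations. The directions below describe pairs at the smallest exact p, in which the ratios of the groups did not overlap, and none of them passed the adjustment.

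Stat2 gained on all 8 partners between α-KG and the combination, by 1.17 (over Jak3) to 1.97 (over Jak2) on the log2 scale. Its log2 ratio to Jak2 was 0.73 ± 0.39 (SD, n = 4) in combination tumors, -1.24 ± 0.64 in α-KG and -0.73 ± 0.31 in vehicle, so that by these means Jak2 was the higher in α-KG and vehicle and Stat2 the higher in the combination. Against vehicle Stat2 gained on 6 partners, all but Stat4 and Jak3. Its gain over Stat4 was 0.64 (standard error 0.33, exact permutation p = 0.114), and over Jak3 it was 0.90 (standard error 0.37, exact permutation p = 0.0571). The direction against Stat4 rests on the pseudocount. With 0.1 in place of 1, Stat4 rose by 3.07 against vehicle, and Stat2 rose by at most 2.49 in any alternative. Between anti-PD1 and α-KG tumors Stat2 gained on 0 partners at the smallest exact p. Jak2 gained 0.48 on Stat3 there (standard error 0.12), in 1 of only 3 pairs at that p.

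Among the kinases, Jak3 gained 0.84 on Jak1 between vehicle and the combination (standard error 0.22), 0.77 against anti-PD1 (standard error 0.23) and 0.64 against α-KG (standard error 0.22). Jak2 did not gain or lose on Jak1 at the smallest p in any comparison. Stat6 was at the other end, since between vehicle and the combination it lost to 6 of its 8 partners, from 0.38 to Stat5b to 1.93 to Stat2. Stat3 and Stat6 did not part there at that p, with a difference of 0.35 (standard error 0.11, exact permutation p = 0.0571). They parted between anti-PD1 and vehicle, where Stat3 gained 0.24 (standard error 0.07), in 1 of only 2 pairs at that p.

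The log2 ratio of the 2 Stat5 genes, Stat5a over Stat5b, was -0.66 ± 0.11 (SD, n = 4) in vehicle and -0.69 ± 0.17 in anti-PD1 tumors, and -0.44 ± 0.12 in α-KG and -0.49 ± 0.06 in combination tumors. Stat5a gained 0.17 on Stat5b between vehicle and the combination (standard error 0.06) and 0.20 against anti-PD1 (standard error 0.09), with no overlap in either. For α-KG alone the gain was 0.22 against vehicle (standard error 0.08, exact permutation p = 0.0571). Against anti-PD1 it was 0.25 (standard error 0.11, exact permutation p = 0.0857), and the groups overlapped in both. Between the 2 groups that received α-KG the ratio differed by -0.05 (standard error 0.07, exact permutation p = 0.486).

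**Figure D3:**
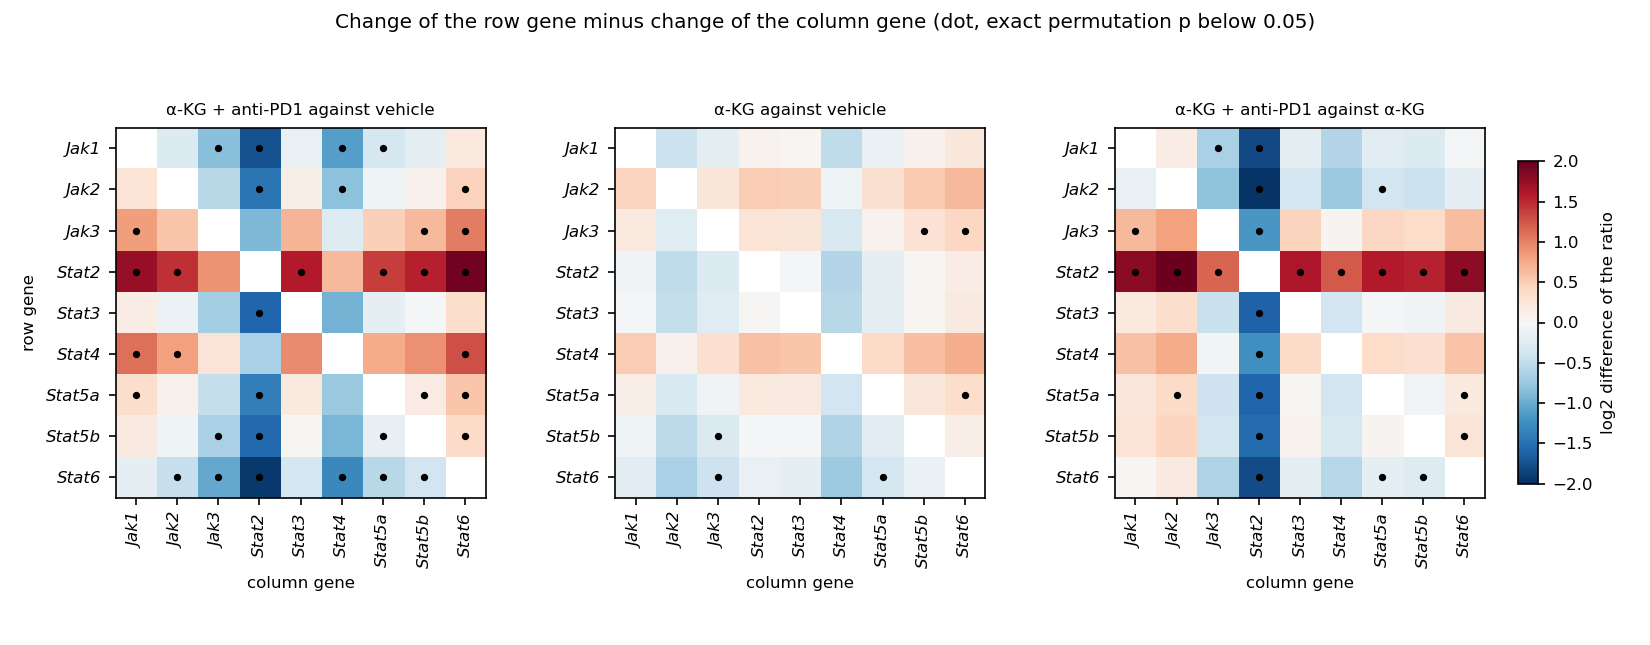
Change of the row gene minus change of the column gene (color, log2) for 3 pairs of groups; a dot marks an exact permutation p below 0.05 before adjustment. The Stat2 row has dots at all 8 partners for the combination against α-KG and at 6 partners against vehicle, and the α-KG against vehicle panel has dots for 3 pairs.

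The genes whose log2 values ran most alike over the 16 tumors differed between the 9. These are descriptions across tumors that share their groups, and of 12850 genes the 3 nearest were taken for each. For Stat2 they were Nlrc5, the transactivator of MHC class I genes (Pearson's r = 0.986), Lime1 (0.985) and Ifi203, an interferon-inducible gene (0.983). For Stat4 they included Acap1 (r = 0.981) and Traf3ip3 (0.977), and for Jak3 they were Runx2 (r = 0.987), Tbc1d10c (0.984) and Nfatc1 (0.983). Jak2 ran closest to the protease gene Furin (r = 0.976), Stat5a to Csf2ra, a chain of the GM-CSF receptor (0.966), and Stat5b to Rbms1 (0.9745). Stat3 ran closest to another of the 9 genes, Stat6 (r = 0.933), and Stat6 to Mknk1 (0.951). Jak1 ran closest to Cyria (r = 0.954).

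Taken as deviations from the group means, so that only differences among the 4 tumors of a group count, the nearest genes changed. Stat2 was then nearest to Oas2, an interferon-induced antiviral gene (r = 0.976), followed by Nlrc5 (0.970) and C4b (0.964). Stat4 was nearest to Cd3e, a chain of the T-cell receptor complex (0.970), Gimap3 (0.965) and the checkpoint receptor gene Ctla4 (0.962). Jak3 was nearest to Atp10a (0.989), Runx2 (0.986) and Ncr1, a receptor of natural killer cells (0.980). The log2 SD of Jak3 was 0.715 in the combination and at most 0.250 in the other groups, and that of Stat4 0.782 and at most 0.420. The deviations of these 2 genes thus rest mostly on combination tumors 1 and 3 against 2 and 4. Jak2 was nearest to Map3k3 (0.957), Stat5a to Zc3h12a (0.914), Stat5b to Elmo2 (0.948), Stat3 to Sowahc (0.958), Stat6 to Syap1 (0.915) and Jak1 to Btg1 (0.965). Among the 9 genes themselves, the closest pair of deviations was Stat3 and Stat6 (r = 0.910) and the next Stat4 and Jak3 (0.857), while Stat2 and Stat3 had the lowest value (0.225).

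Since leukocyte markers moved with the groups, each gene was related to 3 marker scores within the groups, as deviations over the 16 tumors, with 100000 permutations within groups and adjustment over 27 relations. The scores were means of log2(FPKM + 1) over the pan-leukocyte, T-cell and melanocyte lists. The pan-leukocyte score was related to 7 of the 9 genes (r from 0.654 to 0.860), all but Stat3 (r = 0.372, adjusted permutation p = 0.397) and Stat6 (r = 0.426, adjusted permutation p = 0.258). This score hardly varied among the α-KG tumors (5.69 to 5.76), so that group adds little. With the log2 of the summed markers as the score, Stat2 (adjusted permutation p = 0.0521) and Stat5a (0.0812) did not pass. The T-cell score was related to 4, Stat2, Stat4, Stat5b and Jak3. The melanocyte score was related to 0 of 9, with r from -0.455 to 0.467 and 0 at an unadjusted permutation p under 0.05. The share of all genes related to each score was not counted, so these counts of members have no background to be read against.

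Stat4 had the closest relation to the T-cell score (r = 0.947, rho = 0.909, adjusted permutation p = 0.00203 and 0.00756), and r was 0.904 without the 2 tumors farthest from the median score. For Jak3 and the T-cell score r was 0.839 (rho = 0.838, adjusted permutation p = 0.00508 and 0.0151), and 0.657 without 2 tumors. Jak1 was the most closely related to the pan-leukocyte score (r = 0.860, rho = 0.879, adjusted permutation p = 0.0228 and 0.0151) and stayed at 0.850 without 2 tumors. Stat2 followed the T-cell score with r = 0.681 (rho = 0.741, adjusted permutation p = 0.00324 and 0.00756), with 0.793 without 2 tumors. For Jak2 and the pan-leukocyte score r was 0.676 (rho = 0.759, adjusted permutation p = 0.00502 and 0.00756), with 0.535 without 2 tumors. After quantile normalization 4 of the 27 relations passed: those of Stat2 and Stat4 with the T-cell score and of Stat4 and Jak2 with the pan-leukocyte score.

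**Figure D4:**
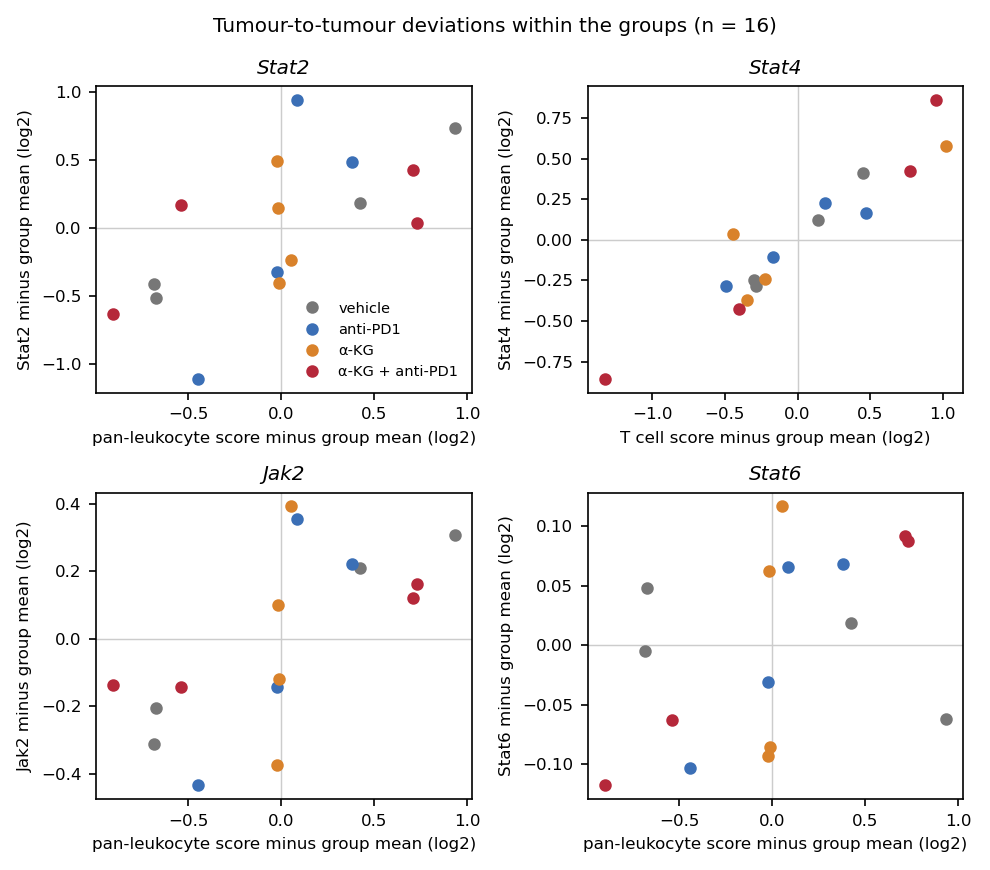
Deviation of a gene from its group mean (vertical axis, log2) against the deviation of a marker score from its group mean (horizontal axis, log2) in the 16 tumors, colored by group. The Stat4 points lie close to a line against the T-cell score (r = 0.947), whereas those of Stat6 scatter against the pan-leukocyte score (r = 0.426).

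The other genes of the pathway were counted in 4 lists, which can be read against the medians and called shares of all genes in each comparison. The share called higher was 34.9% for the combination, 8.40% for α-KG and 0.467% for anti-PD1, each against vehicle. For the combination it was 14.2% against anti-PD1 and 31.8% against α-KG, and for α-KG against anti-PD1 it was 2.80%. Some list genes passed the filter on low values only through the group in which they were high, so the counts that hold them are a description. Of 24 cytokine ligands, 23 were in the table and 10 were tested. Against vehicle, 7 of the 10 rose with the combination, 7 rose with α-KG and 0 with anti-PD1. Csf3 and Il23a passed the filter only through the α-KG tumors, and of the other 8 genes 7 and 5 rose with the combination and with α-KG. The largest rise was that of Ifng with the combination and that of Osm with α-KG. Ifng, the gene of interferon gamma, was at 7.91 ± 6.06 FPKM (SD, n = 4) in the combination and at 0.290 ± 0.350 in vehicle tumors, 1.26 ± 0.962 after anti-PD1 and 0.320 ± 0.312 after α-KG, and rose by 2.48, 1.74 and 2.44 against these groups (adjusted p = 0.000946, 0.0260 and 0.00151). Osm, the gene of oncostatin M, was at 37.3 ± 14.2 FPKM in α-KG, 0.773 ± 0.473 in vehicle and 2.81 ± 1.01 in combination tumors, a rise of 4.40 with α-KG alone (adjusted p = 8e-08). Csf3, the gene of the neutrophil growth factor G-CSF, was at 9.38 ± 4.69 FPKM in α-KG and 0.358 ± 0.610 in combination tumors. Between the 2 groups that received α-KG, 1 of the 10 ligands was higher in the combination, Ifng, and 5 were lower (3 of the other 8), where 6.47% of all genes were called lower.

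Of 38 receptor chains, 32 were tested, and 26 rose with the combination (median 1.01), 15 with α-KG (median 0.47) and 0 with anti-PD1 (median 0.37), each against vehicle. Of the 26, 2 (Il27ra and Il5ra) passed the filter only through the combination tumors. The count of 0 for anti-PD1 depended on the setting, since it was 10 without vehicle tumor 1, 8 with a pseudocount of 0.1 and 4 after centering. Il2rb, a chain of the interleukin-2 receptor that signals through Jak1 and Jak3, was at 45.6 ± 35.6 FPKM in the combination and 1.22 ± 1.29 in vehicle, a rise of 4.13 (adjusted p = 0.000476). Its partner Il2rg, the common gamma chain, rose by 3.22 (adjusted p = 0.000460), and the smallest rise was that of Il10rb (0.34, adjusted p = 0.00409). With α-KG alone the largest rises were those of Csf3r, the G-CSF receptor and itself a neutrophil marker (3.98, adjusted p = 1.22e-07), Csf2rb (3.17, adjusted p = 1.79e-05) and Il4ra (2.62, adjusted p = 4.69e-05). Against anti-PD1, 11 of the 32 were higher in the combination (10 of the 30 without Il27ra and Il5ra), and 3 in α-KG tumors. Between the combination and α-KG, 10 were higher (9 of the 30), among them Il2rb (3.23) and Il12rb1 (2.04), and 2 were lower, among them Csf3r (-2.36). The 10 of 32 is near the share of all genes called higher there. It became 6 higher and 7 lower after quantile normalization, 6 and 10 after centering, and 5 and 3 without combination tumor 1 or 3. The interaction was lower for 6 and higher for 0 of the 32.

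Of 18 feedback inhibitors and phosphatases, all of them tested, 10 rose with the combination (median 0.35), 5 with α-KG (median 0.13) and 0 with anti-PD1 (median 0.10), each against vehicle. Socs1, an inhibitor induced by interferon gamma, was at 18.8 ± 13.4 FPKM in the combination, 2.50 ± 0.703 in α-KG and 1.25 ± 0.489 in vehicle tumors, a rise of 2.84 against vehicle (adjusted p = 0.000716) and of 2.20 over α-KG tumors (adjusted p = 0.00413). Socs3, which is induced through Stat3, had the other order: it was at 54.0 ± 20.7 FPKM in α-KG, 20.1 ± 7.78 in the combination and 5.58 ± 1.01 in vehicle tumors, a rise of 3.01 with α-KG (adjusted p = 4.07e-06). Ptprc, listed here as a phosphatase, is also a pan-leukocyte marker. The smallest rise against vehicle, that of Pias1 (0.28, adjusted p = 0.0441), turned to -0.062 after quantile normalization and -0.032 after centering.

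Of 23 partners and target genes, all of them tested, 17 rose with the combination against vehicle (median 1.14), led by Gbp2 (3.89), Cxcl9 (3.44) and Irf1 (3.02), which interferon gamma induces, and 13 were higher than with anti-PD1. Foxp3, Gata3 and Tbx21 passed the filter only through the combination tumors, and of the other 20 genes 14 and 10 were higher in these comparisons. With anti-PD1 0 rose (median 0.53), and 3 did without vehicle tumor 1. With α-KG alone 6 rose (median 0.37), led by the kinase gene Pim1 (2.93), Cd274 (2.45) and Bcl3 (2.37), and 1 fell, Pim2 (-0.35, adjusted p = 0.0409), where 7.53% of all genes were called lower. Pim2 was not called with the replicate block (adjusted p = 0.0661), without the filter, after rescaling to the same sum, with only these 2 groups, or without vehicle tumor 3 or 4 or α-KG tumor 2, 3 or 4. Between the combination and α-KG, 11 were higher (8 of the other 20) and 2 lower, among them Pim1 (-1.44). After quantile normalization 8 were higher and 2 lower, and after centering 8 and 6. Cd274 was at 27.2 ± 5.19 FPKM in α-KG and 26.5 ± 10.8 in combination tumors and at 4.41 ± 2.24 in vehicle. The difference of Cd274 between the 2 groups that received α-KG was -0.10 (standard error 0.31, adjusted p = 0.814).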

How the data were processed

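RNA of 16 tumors was captured with oligo-dT, its second cDNA strand marked with dUTP, and sequenced on a DNBSEQ platform. The authors deposited 1 table of FPKM values, used in whole. The submitters' processing notes name HISAT, Bowtie2 and mm10, and the program that gave FPKM and its treatment of strand are not given in the sources used here. Read depth is unknown, so no counting error is given. Groups came from the titles.

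Values were changed to log2(FPKM + 1), and genes with at least 0.5 FPKM in at least 4 tumors were tested. Group means were fitted to all 16 tumors with limma 3.58.1 (eBayes with trend) in R 4.3.3, with 6 comparisons and the interaction, Benjamini-Hochberg adjustment over 12850 genes and a threshold of 0.05. Comparisons that share a group share its tumors. Pair ratios and marker scores used Python 3.11.15, numpy 2.4.6 and scipy 1.17.1. The members, lists and rules were chosen with earlier results of these data known. The rule for named genes took all 9 members, the 3 most alike genes of each, of each list the 3 passing genes with the largest change and the lowest passing one, and Ifng and Cd274. Not all of these are printed: for Stat3, Stat5a, Stat5b, Stat6, Jak1 and Jak2 only the most alike gene is named, and list genes are named as far as they add to the members' account. Genes named for passing the filter through 1 group or for their overlap were chosen after their values were seen. The limma fit and the pair test were tested on simulated data. Alternatives were another pseudocount, no filter, 4 scalings, 2 groups only, no trend, the replicate number as a block, and leaving out each tumor. No tumor was left out of the values reported. Among the most alike genes, 1 is not reported here.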

Additional observations from a re-analysis of the deposited data

How the results depend on the processing

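The 9 calls between the combination and vehicle became 6 to 9 under the alternatives run, and the counts for anti-PD1 against vehicle and α-KG against anti-PD1 stayed at 0. Of 5 members called between the combination and anti-PD1, 3 were called with a pseudocount of 0.1, without the filter, after quantile normalization, after centering and with the replicate block, 0 with only these 2 groups, and 1 to 6 without a tumor. Of 4 called against α-KG, 1 was called after quantile normalization or centering, 7 after rescaling to the same sum, and 2 to 6 without a tumor. Rescaling to the same sum also raised the higher calls over all genes there, from 4086 to 6829. Of 2 called for α-KG against vehicle, 0 were called after rescaling to the same sum, 4 with only these 2 groups, and 0 to 2 without a tumor. The interaction was called for 0 to 1 members without a tumor. The block changed no other count of called members. It changed the list counts by over 1.5 times for receptor chains between α-KG and anti-PD1 (1 in place of 3) for partners and targets between the combination and anti-PD1 (8 in place of 13) and, for lower calls, between α-KG and vehicle (0 in place of 1), and for the interaction of the latter list (0 in place of 1 higher and 1 in place of 3 lower). The deviations of same-numbered tumors correlated at r from -0.642 to 0.411. Differently numbered tumors were not compared in this way, so these values cannot decide whether the numbers pair tumors. The number of pair ratios that passed was 0 in every setting run, where the smallest exact permutation p allows a pass only when many pairs reach it together. Leaving out a tumor was not run for the ratios, since 3 tumors against 4 cannot give an exact permutation p under 0.0571. Of 11 relations with marker scores, 4 passed after quantile normalization.

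Among the changes whose values are given above, directions that turned were small. Among the others, the Stat4 interaction (0.19) turned in 3 of 24 alternatives, with a lowest value of -0.50. The Stat3 interaction (0.04) turned in 7 (lowest -0.15), that of Jak1 in 3, and those of Stat5a, Stat5b and Stat6 in 2 each. For α-KG against anti-PD1, Stat3 (-0.04) turned in 5 of 17 alternatives (highest 0.03), Stat6 in 2 and Stat5b in 1. Centering gave Stat6 -0.060 against vehicle, -0.034 against anti-PD1 and -0.11 against α-KG in combination tumors, and -0.025 for anti-PD1 against vehicle. Jak1 against α-KG turned to -0.01125 after quantile normalization and -0.13 after centering, and Pias1 against vehicle to -0.062 and -0.032. Jak2 against α-KG turned to 0.19 after rescaling to the same sum, to 0.065 after rescaling without hemoglobin genes, and lay between -0.14 and 0.12 without a tumor. It was -0.30 after quantile normalization (adjusted p = 0.128). The cause was not tested. The list counts between the combination and anti-PD1 all fell to 0 with only these 2 groups. That of receptor chains against vehicle was 18 to 28, and that of inhibitors 6 to 14, over all alternatives. Depth is unknown, and values under 1 FPKM, such as those of Stat4 in vehicle tumors, limit the size of a change.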
